A study of Mus musculus with 22 samples.

Results

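The 10 mouse genes described here load and display peptide antigens on major histocompatibility complex (MHC) molecules: 3 of class I (H2-K1, B2m and Tap1) and 7 of class II (Cd74, Ciita, H2-Aa, H2-Ab1, H2-Eb1, H2-DMa and H2-DMb1). They were chosen by symbol, and all 10 were found among the 53342 genes of the deposited count tables. RNA was sequenced from 22 libraries of Bl6 mice with K-Ras-driven pancreatic cancer: 8 tumors labelled miR21 KO (knockout), 4 tumors labelled WT (wild type), 5 cell lines labelled miR21 KO and 5 cell lines labelled WT. Every title begins with KPC, none of the samples was treated, and the labels give no age and no Cre driver. Tumors were snap-frozen whole, so they hold every cell type of the tissue. The lines were grown from dissociated tumors, passaged at least 8 times to lose fibroblasts, genotyped for recombined K-Ras and p53 alleles, and collected at passage 10 to 14 in 5% serum. By title, 5 animals (2 KO and 3 WT) gave both a tumor and a line, and libraries are named below by group and a number that carries no order. The labels name the comparison of genotypes as the main one, and tumors are also set beside lines of the same genotype.

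Class I molecules sit on nearly every nucleated cell and show peptides cut from proteins made inside it. H2-K1 encodes a heavy chain, B2m the light chain beta-2-microglobulin, and Tap1 a subunit of the pump that carries peptides into the endoplasmic reticulum. Class II molecules are made mainly by professional antigen-presenting cells (dendritic cells, B cells and macrophages) and show peptides from material taken up from outside to CD4 T cells. H2-Aa and H2-Ab1 encode the alpha and beta chains of the I-A molecule, and H2-Eb1 the beta chain of I-E. Cd74, the invariant chain, blocks the peptide groove during transport, H2-DMa and H2-DMb1 form the DM molecule that exchanges its remnant for peptide, and Ciita is the coactivator that switches class II genes on, as Nlrc5 does for class I genes. Interferon gamma induces both classes in many cell types.

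The KO label names the microRNA miR-21, whose mature 5p strand is printed with its seed, bases 2 to 8, in capitals (chr11:86584120-86584141, minus strand, RefSeq, GRCm38.p6).
mmu-miR-21a-5p: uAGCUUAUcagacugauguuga
The longest annotated 3′ UTR of each of the 10 genes, 291 to 2676 bases long, held 0 matches to this seed. The precursor Mir21a had 0 counts in all 22 libraries, so these mRNA libraries do not check the genotype labels.

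Of the 10 genes, 7 lie on chromosome 17 (GRCm38), within the MHC region: H2-K1 at 33996017-34000347, H2-DMa at 34119541-34139101, H2-DMb1 at 34153072-34160230, Tap1 at 34187553-34197225, H2-Ab1 at 34257689-34269419, H2-Aa at 34282744-34287823 and H2-Eb1 at 34305867-34316674. B2m (chromosome 2, 122147686-122153083), Ciita (chromosome 16, 10480059-10528418) and Cd74 lie elsewhere. RefSeq promoter windows (250 bases before to 50 after the start site, GRCm38.p6) were given for 7 of the 10 genes. They are shown for the class I genes H2-K1 and Tap1 and for 3 class II genes because the classes are known to share the X and Y boxes, through which RFX and NF-Y hold Ciita or Nlrc5, whereas H2-K1 and B2m differed less between the tumors and lines below than the other 8 genes. Capitals mark matches, on either strand, to a Y box core (TGATTGG), an X box core (AGNAACNGA), a cAMP response element (TGACGTCA), a kappaB site (GGGATTCCC) and an interferon response element-like motif (TTTCNNTTC or TTCNNTTTC).
H2-K1, chr17:34000298-34000597, minus strand: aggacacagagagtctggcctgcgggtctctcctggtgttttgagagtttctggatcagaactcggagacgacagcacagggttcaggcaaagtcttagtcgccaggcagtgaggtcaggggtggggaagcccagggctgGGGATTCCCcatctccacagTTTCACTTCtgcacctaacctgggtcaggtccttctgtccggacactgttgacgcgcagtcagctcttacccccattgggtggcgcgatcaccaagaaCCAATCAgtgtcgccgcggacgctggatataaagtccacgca
Tap1, chr17:34187306-34187605, plus strand: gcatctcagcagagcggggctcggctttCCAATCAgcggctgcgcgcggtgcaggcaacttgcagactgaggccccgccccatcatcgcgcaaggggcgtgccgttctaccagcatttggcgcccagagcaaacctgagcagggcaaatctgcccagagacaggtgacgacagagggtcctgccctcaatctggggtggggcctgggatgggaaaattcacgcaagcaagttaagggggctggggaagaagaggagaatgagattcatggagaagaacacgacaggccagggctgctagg
H2-Aa, chr17:34287774-34288073, minus strand: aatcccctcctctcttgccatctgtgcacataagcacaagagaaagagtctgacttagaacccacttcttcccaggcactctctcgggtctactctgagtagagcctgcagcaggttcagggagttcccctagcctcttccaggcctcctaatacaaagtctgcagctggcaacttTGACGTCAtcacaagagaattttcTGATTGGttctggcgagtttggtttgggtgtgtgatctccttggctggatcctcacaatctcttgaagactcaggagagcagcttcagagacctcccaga
H2-Eb1, chr17:34305617-34305916, plus strand: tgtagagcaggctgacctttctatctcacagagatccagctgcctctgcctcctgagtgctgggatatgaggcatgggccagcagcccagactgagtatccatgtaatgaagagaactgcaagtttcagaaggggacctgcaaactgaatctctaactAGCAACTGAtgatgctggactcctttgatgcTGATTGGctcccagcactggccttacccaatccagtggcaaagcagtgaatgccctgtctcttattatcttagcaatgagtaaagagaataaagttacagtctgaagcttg
H2-DMb1, chr17:34152941-34153240, plus strand: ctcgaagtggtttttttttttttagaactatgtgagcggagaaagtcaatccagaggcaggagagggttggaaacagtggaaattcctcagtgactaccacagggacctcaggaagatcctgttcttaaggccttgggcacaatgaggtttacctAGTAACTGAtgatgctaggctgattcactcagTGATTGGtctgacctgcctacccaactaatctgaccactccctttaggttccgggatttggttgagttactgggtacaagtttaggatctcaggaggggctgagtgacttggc
H2-Aa, H2-Eb1 and H2-DMb1 each held the Y box core, at -50, -61 and -63 bases from the start site. H2-Eb1 and H2-DMb1 also held the X box core, at -92 and -95, and H2-Aa held the cAMP response element at -74. H2-K1 held the kappaB site at -110 and the interferon-like motif at -90, and a reversed Y box core (CCAATCA) at 8 bases past the start; Tap1 held a reversed Y box core at -222. B2m held an interferon-like motif at -139, and the 2 windows of H2-DMa held none of the 5 motifs. Among all 32851 windows of this length, 7.82% held the Y box core, 5.35% the X box core, 1.79% the cAMP response element, 0.353% the kappaB site and 14.8% the interferon-like motif. The motifs were chosen after the windows had been read, and a match is a string of letters, not a tested site. The Tap1 window runs the other way into Psmb9, which encodes an immunoproteasome subunit: their start sites lie 226 bases apart and their windows share 275 bases.

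The libraries held 24547650 to 31118113 counts, and no pair held the same values. Levels below are CPM, a gene's counts relative to the total of its library, scaled by TMM factors over all 22 libraries, and 3 counts, the limit a count of 0 allows, equal 0.134 CPM in KO line 4, the smallest library after scaling. As a sum, epithelial markers were high in both materials. Summed CPM of 8 epithelial markers was 3902 to 8200 in KO tumors, 6186 to 14139 in WT tumors, 8735 to 11350 in KO lines and 7287 to 14468 in WT lines. Single markers differed: 3 were called higher and 5 lower in KO tumors than in KO lines, and 3 higher and 1 lower in WT. Epcam had 6.06 to 86.4 CPM in KO lines against 248 to 1155 CPM in KO tumors. The macrophage list (10 genes) had 565 to 2020 CPM in KO tumors, 815 to 1102 CPM in WT tumors, 154 to 242 CPM in KO lines and 157 to 290 CPM in WT lines. Of its genes, C1qa, C1qb and C1qc were at 0 in every line, whereas Cd14 and Mrc1 were present in every line. In tumors the B cell list (8 genes) stood apart in KO tumor 8, at 753 CPM, and in WT tumor 2, at 345 CPM; KO tumors 7 and 4 had 105 and 63.8 CPM and the other tumors at most 13.0 CPM. WT tumor 3 had 1153 CPM of 5 skeletal muscle genes, against 1.46 to 12.8 CPM in KO tumors. WT tumors 1, 2 and 4 had 34.3, 8.58 and 6.98 CPM of them. The fits between genotypes and the correlations with Ptprc are therefore given with and without KO tumor 8 and WT tumor 2, and other values where these tumors move them. In whole tumors, fewer cells of a type and less RNA per cell cannot be told apart.

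Between tumors labelled KO and tumors labelled WT, none of the 10 genes differed by more than the spread between tumors. H2-K1 had 172 (lowest), 236 (median) and 794 CPM (highest) in KO tumors, against 197, 478, 287 and 171 CPM in WT tumors. B2m had 166, 239 and 690 CPM in KO tumors by the same measures, against 183, 452, 147 and 262 CPM in WT tumors. Tap1 was far lower, with 6.68, 10.8 and 87.8 CPM in KO tumors and 9.24, 34.6, 5.51 and 14.1 CPM in WT tumors. In each of these 3 genes the WT values fell inside the KO range or just outside its lower end, so that the groups overlapped, and the highest KO value was a single library.

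The class II chains spread more widely than H2-K1 and B2m. H2-Aa had 37.7 (lowest), 122 (median) and 850 CPM (highest) in KO tumors, against 61.0, 263, 38.1 and 178 CPM in WT tumors. H2-Ab1 had 28.9, 82.0 and 666 CPM in KO tumors, against 51.0, 197, 32.4 and 153 CPM in WT tumors. H2-Eb1 had 27.3, 85.2 and 663 CPM in KO tumors, against 43.8, 201, 27.2 and 140 CPM in WT tumors. The order of the WT tumors was the same in all 3 genes: WT tumor 2 was highest and WT tumor 3 lowest. H2-Ea-ps, the I-E alpha chain gene, had 0 counts in all 22 libraries, as is known of the H-2b haplotype of Bl6 mice, in which I-E is not displayed.

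The genes that help class II molecules to load followed the same libraries. Cd74 (chromosome 18, 60803848-60812652) had 94.7 (lowest), 251 (median) and 1871 CPM (highest) in KO tumors, against 152, 671, 88.7 and 426 CPM in WT tumors. H2-DMa had 6.23, 19.1 and 89.6 CPM in KO tumors, against 16.5, 32.4, 8.01 and 24.8 CPM in WT tumors. H2-DMb1 had 5.06, 14.0 and 63.4 CPM in KO tumors, against 8.26, 21.98, 6.06 and 18.1 CPM in WT tumors. These 3 genes were again highest in KO tumor 8 and next highest in WT tumor 2. Ciita, the coactivator, had 1.27, 4.71 and 60.3 CPM in KO tumors, against 2.84, 30.6, 1.44 and 5.51 CPM in WT tumors, with only KO tumor 8 and WT tumor 2 above 6.85 CPM.

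**Figure D1:**
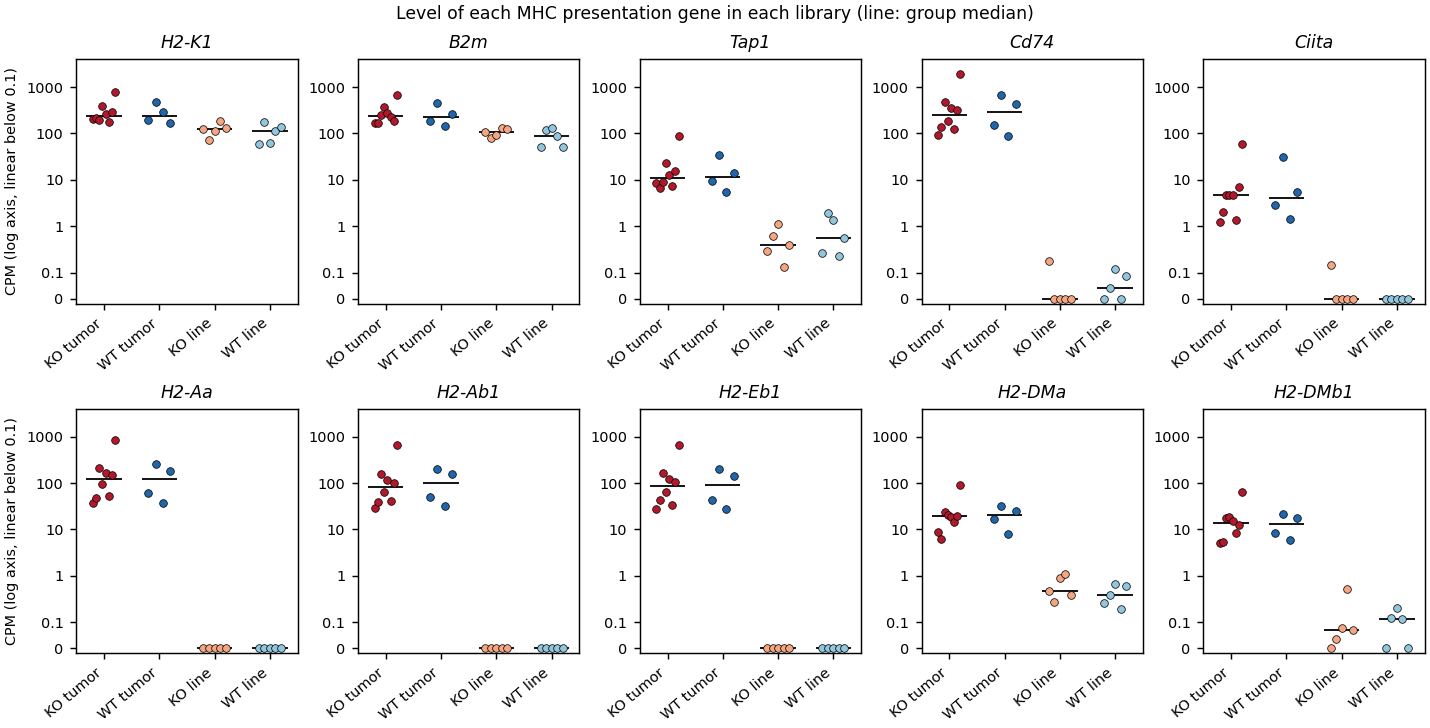
Level of each of the 10 genes in every library, in CPM on an axis that is linear near 0 and logarithmic above it; points are libraries and lines are medians of the group. All 10 genes were highest in KO tumor 8 (H2-K1 794 CPM, Cd74 1871 CPM), and the class II chains were at 0 in all 10 lines.

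The same pair of tumors topped every gene: all 10 were highest in KO tumor 8 and second highest in WT tumor 2. From the lowest to the highest tumor, levels ranged 4.66-fold in H2-K1 and 4.70-fold in B2m, but 15.9-fold in Tap1, 21.1-fold in Cd74, 22.6-fold in H2-Aa, 23.1-fold in H2-Ab1, 24.4-fold in H2-Eb1, 14.4-fold in H2-DMa, 12.5-fold in H2-DMb1 and 47.7-fold in Ciita. Every highest value was KO tumor 8. Without it the ranges were 2.81-fold in H2-K1, 3.08-fold in B2m, 6.27-fold in Tap1, 4.34-fold to 7.56-fold in the class II genes other than Ciita, and 24.2-fold in Ciita. Without WT tumor 2 as well they were 2.33-fold in H2-K1, 2.55-fold in B2m, 4.15-fold in Tap1, 3.58-fold to 6.03-fold in the 6 other class II genes and 5.42-fold in Ciita. Class II genes together took 0.458% of the counts of KO tumor 8. That tumor also had the highest Ptprc, the common leukocyte antigen CD45, at 316 CPM, against 20.3 to 74.1 CPM in the other 7 KO tumors and 30.7, 166, 28.9 and 43.0 CPM in WT tumors. How each gene varied with Ptprc over the tumors is given below; the part of B cells in the levels was not tested.

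In the fit over 12 tumors (edgeR's quasi-likelihood test with Benjamini-Hochberg adjustment over 18125 genes), 0 of the 10 genes passed an adjusted p of 0.05 and 0 had an unadjusted p under 0.05. Over all genes tested, 0.011% passed (2 of 18125), and 3033 had an unadjusted p under 0.05. The KO minus WT log2 fold change was 0.12 for H2-K1 (95% interval -0.77 to 1.00, adjusted p = 0.915 by edgeR), 0.13 for B2m (-0.72 to 0.98, adjusted p = 0.899) and 0.40 for Tap1 (-1.18 to 1.97, adjusted p = 0.826). For the class II chains it was 0.54 for H2-Aa (-1.23 to 2.30), 0.45 for H2-Ab1 (-1.32 to 2.22) and 0.54 for H2-Eb1 (-1.28 to 2.35), with adjusted p between 0.781 and 0.823 by edgeR. For their helpers it was 0.38 for Cd74 (-1.34 to 2.10), 0.26 for H2-DMa (-1.06 to 1.58), 0.38 for H2-DMb1 (-0.97 to 1.74) and 0.06 for Ciita (-2.29 to 2.42), with adjusted p between 0.798 and 0.985. The intervals of the class II genes allow changes of more than 2-fold in either direction, or, for H2-DMb1, upwards, so these 12 tumors cannot show that the genotypes are alike.

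The sign of the difference rested on single tumors. All 10 fold changes were above 0 with all 12 tumors and all 10 were below 0 without KO tumor 8: H2-K1 -0.22, B2m -0.17, Tap1 -0.43, H2-Aa -0.33, H2-Ab1 -0.48, H2-Eb1 -0.37, Cd74 -0.48, H2-DMa -0.37, H2-DMb1 -0.23 and Ciita -1.45. None was called there either, with adjusted p from 0.368 to 0.836 by edgeR. Without both KO tumor 8 and WT tumor 2, 8 of the 10 were above 0, the fold changes ran from -0.09 to 0.26 on the log2 scale, and the lowest adjusted p was 0.710. With Ptprc as a covariate, the fold changes ran from -0.24 (Ciita) to 0.14 (H2-Eb1), and 0 of 10 were called. The members' medians, 0.13 for class I and 0.38 for class II with all tumors, stood beside a median of 0.01 over all genes tested.

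**Figure D2:**
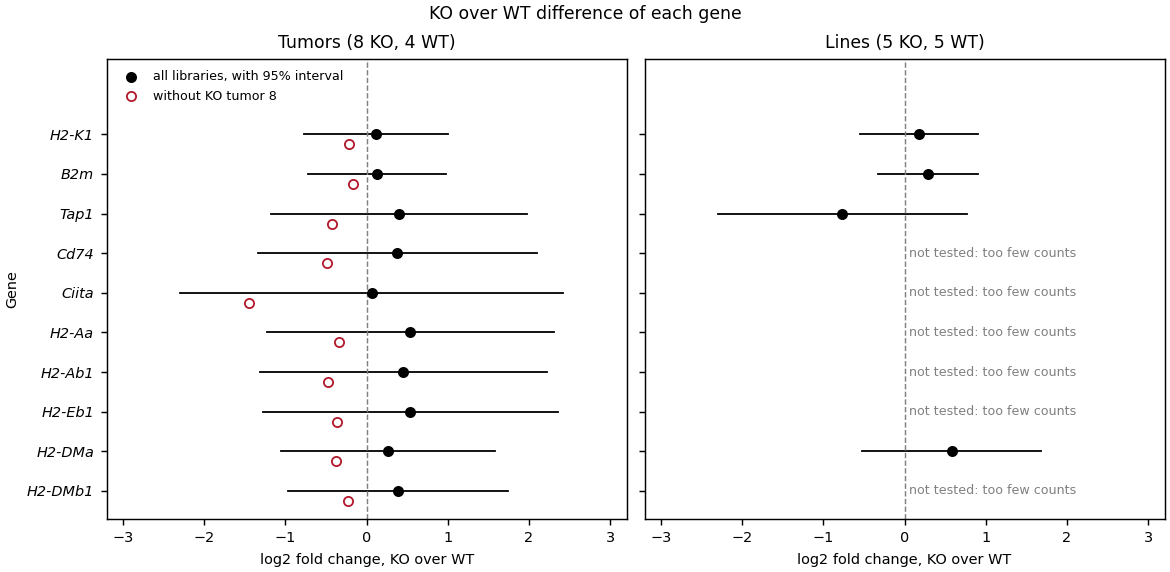
KO minus WT log2 fold change with its 95% interval (edgeR) for the genes tested in tumors (10 genes) and in lines (4 genes); open circles are tumors without KO tumor 8. Every interval spans 0, and the 10 open circles lie below 0 (-0.17 for B2m to -1.45 for Ciita).

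In the cell lines, class I genes were present and class II genes were nearly silent whatever the genotype. H2-K1 had 125, 70.6, 113, 186 and 130 CPM in KO lines, against 60.6, 175, 63.2, 113 and 141 CPM in WT lines. B2m had 108, 78.5, 94.5, 134 and 122 CPM in KO lines, against 51.5, 118, 129, 89.2 and 50.3 CPM in WT lines. The genotypes overlapped in both genes, and for B2m the lowest values belonged to 2 WT lines. Tap1 was close to the floor, with 0.290, 0.630, 1.11, 0.134 and 0.390 CPM in KO lines and 0.260, 1.98, 1.37, 0.231 and 0.561 CPM in WT lines. The lines thus held the heavy and light chains at 50.3 CPM or more beside Tap1 at 1.98 CPM or less; Tap2, the other subunit of the pump, reached 5.69 CPM in WT line 2.

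H2-Aa, H2-Ab1 and H2-Eb1 had 0 counts in all 10 lines. Cd74 had 5 counts in KO line 1 and 0 in the other KO lines, against 0, 1, 3, 0 and 2 counts in WT lines. Ciita had 4 counts in KO line 1 and 0 in the other KO lines, against 0 in every WT line. The DM genes were the only class II members with any counts in most lines. H2-DMa had 0.472, 0.280, 0.920, 1.11 and 0.390 CPM in KO lines, against 0.260, 0.379, 0.684, 0.193 and 0.604 CPM in WT lines. Its exons overlap Brd2 by 360 bases, and the part of Brd2 in these counts was not tested. H2-DMb1 had 17 counts over KO lines (0, 1, 2, 12 and 2) and 11 over WT lines (0, 3, 5, 3 and 0), so several lines were under the limit of 3 counts. The RFX subunits were present, with Rfx5 at 17.5 to 29.3 CPM, Rfxank at 13.8 to 23.8 CPM and Rfxap at 17.3 to 26.7 CPM over the 10 lines, as was the NF-Y subunit Nfya at 61.3 to 117 CPM.

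Only 4 of the 10 genes had counts enough for the test in lines, and 0 of the 4 passed it or had an unadjusted p under 0.05, against 0.0143% of all genes (2 of 14020 passed, 980 at an unadjusted p under 0.05). The KO minus WT log2 fold change was 0.18 for H2-K1 (95% interval -0.55 to 0.91, adjusted p = 0.906 by edgeR), 0.29 for B2m (-0.32 to 0.91, adjusted p = 0.814), -0.77 for Tap1 (-2.30 to 0.76, adjusted p = 0.801) and 0.58 for H2-DMa (-0.52 to 1.68, adjusted p = 0.796). Among KO lines, Cd74 had counts in KO line 1 alone. The KO effect in tumors minus that in lines could be estimated for 6 genes. It was -0.03 for H2-K1 (SE 0.57), -0.13 for B2m (SE 0.53), 1.20 for Tap1 (SE 1.09), 0.74 for Cd74 (SE 2.34), -0.27 for H2-DMa (SE 0.84) and -0.17 for H2-DMb1 (SE 1.15). It was called for 0 of them by edgeR, with 0 at an unadjusted p under 0.05, against 0% of all genes (0 of 18662, with 1540 at an unadjusted p under 0.05 and 67 called by DESeq2). The difference between tumors and lines in the KO effect was therefore not detectable in these libraries.

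Tumors exceeded lines in all 10 genes in both genotypes, and by far more in class II than in the 2 class I chains. Against lines, H2-K1 was higher by a log2 fold change of 1.33 in KO tumors (SE 0.39, adjusted p = 0.00653 by edgeR) and 1.36 in WT tumors (SE 0.44, adjusted p = 0.015). B2m was higher by 1.44 in KO tumors (SE 0.36, adjusted p = 0.00229) and 1.57 in WT tumors (SE 0.41, adjusted p = 0.00386). Tap1, although a class I gene, rose by 5.37 in KO tumors (SE 0.88, adjusted p = 4.53e-05) and 4.17 in WT tumors (SE 0.87, adjusted p = 0.000703), close to H2-DMa at 5.31 in KO tumors (SE 0.69) and 5.58 in WT tumors (SE 0.73). The share of all genes called higher in tumors was 34.2% in KO and 28% in WT, so a call alone says little of these genes; the sizes stand beside medians of 0.17 and 0.13 over all genes tested.

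For the class II genes the lines gave few counts or none. H2-DMb1 was higher in tumors by a log2 fold change of 7.02 in KO (SE 0.99, adjusted p = 8.52e-06 by edgeR) and 7.19 in WT (SE 1.05, adjusted p = 2.17e-05), and Cd74 by 13.37 in KO (SE 1.28, adjusted p = 1.08e-07) and 12.63 in WT (SE 1.27, adjusted p = 3.11e-07), the Cd74 fold resting on 5 counts over KO lines and 6 over WT lines. Against the limit of 3 counts in the smallest line library of each genotype, H2-Aa was at least 1503-fold higher in KO tumors and at least 1042-fold higher in WT tumors. H2-Ab1 was at least 1137-fold higher in KO tumors and at least 836-fold higher in WT tumors, and H2-Eb1 at least 1147-fold higher in KO tumors and at least 796-fold higher in WT tumors. Ciita was at least 78.0-fold higher in WT tumors than in WT lines, and in KO, where KO line 1 had 4 counts, its log2 fold change was 8.29 (SE 1.60, adjusted p = 0.000387). Without KO tumor 8 the KO bounds were 808-fold for H2-Aa, 587-fold for H2-Ab1 and 602-fold for H2-Eb1. Without WT tumor 2 the WT bounds were 713-fold for H2-Aa, 608-fold for H2-Ab1, 544-fold for H2-Eb1 and 25.2-fold for Ciita. These bounds are set by depth, and the levels of these genes in the lines were not detectable.

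The tumor and line values did not overlap in 9 of the 10 genes in each genotype. Over all genes tested, every tumor lay above every line in 20.5% in KO and 20.7% in WT. H2-K1 was the exception: the lowest KO tumor had 172 CPM and the highest KO line 186 CPM, and the lowest WT tumor had 171 CPM and the highest WT line 175 CPM. H2-K1 was also the gene that rested on 1 library, since without WT tumor 2 its WT log2 fold change was 0.98 and its adjusted p 0.0870 by edgeR. In the 5 animals that gave both, H2-K1, B2m and Tap1 were each higher in the tumor than in the line of that animal in 5 of 5. For H2-K1 the tumor and line of an animal had 212 and 125 CPM (KPC21171, KO), 195 and 130 CPM (KPC2157, KO), 197 and 60.6 CPM (KPC190, WT), 478 and 175 CPM (KPC202, WT) and 287 and 113 CPM (KPC232, WT). Leukocyte markers moved with these differences: 6 leukocyte genes summed to 236 to 1586 CPM in KO tumors, 211 to 755 CPM in WT tumors, 11.8 to 34.3 CPM in KO lines and 3.39 to 42.8 CPM in WT lines. Fibroblast markers did too, at 1932 to 12584 CPM in KO tumors, 2862 to 7644 CPM in WT tumors, 3.25 to 7.52 CPM in KO lines and 2.24 to 16.0 CPM in WT lines. The part of either cell type in the members' differences was not tested.

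The balance of the classes shows the same separation in 1 value per library. The mean log2(CPM + 0.5) of the 7 class II genes minus that of the 3 class I genes was -1.19 ± 0.74 in KO tumors (SD, n = 8), -1.16 ± 0.65 in WT tumors (SD, n = 4), -5.30 ± 0.15 in KO lines (SD, n = 5) and -5.26 ± 0.50 in WT lines (SD, n = 5). Tumors ran from -2.08 to -0.22 and lines from -6.04 to -4.66, so the materials did not overlap. KO and WT differed by -0.04 in tumors, against a pooled SD of 0.714, and by -0.03 in lines, against a pooled SD of 0.371. With the median over genes in place of the mean, the difference in lines was -0.55. In lines the class II part of the value lay near the pseudocount of 0.5 CPM, as H2-Aa, H2-Ab1 and H2-Eb1 had no counts there. The difference in lines is therefore set largely by that pseudocount and the class I genes, and says little of class II. As summed CPM, class II genes had 204 to 4264 in KO tumors, 202 to 1417 in WT tumors, 0.32 to 1.65 in KO lines and 0.26 to 1.01 in WT lines. The class I genes had 378 to 1572 in KO tumors, 390 to 965 in WT tumors, 150 to 320 in KO lines and 112 to 295 in WT lines.

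**Figure D3:**
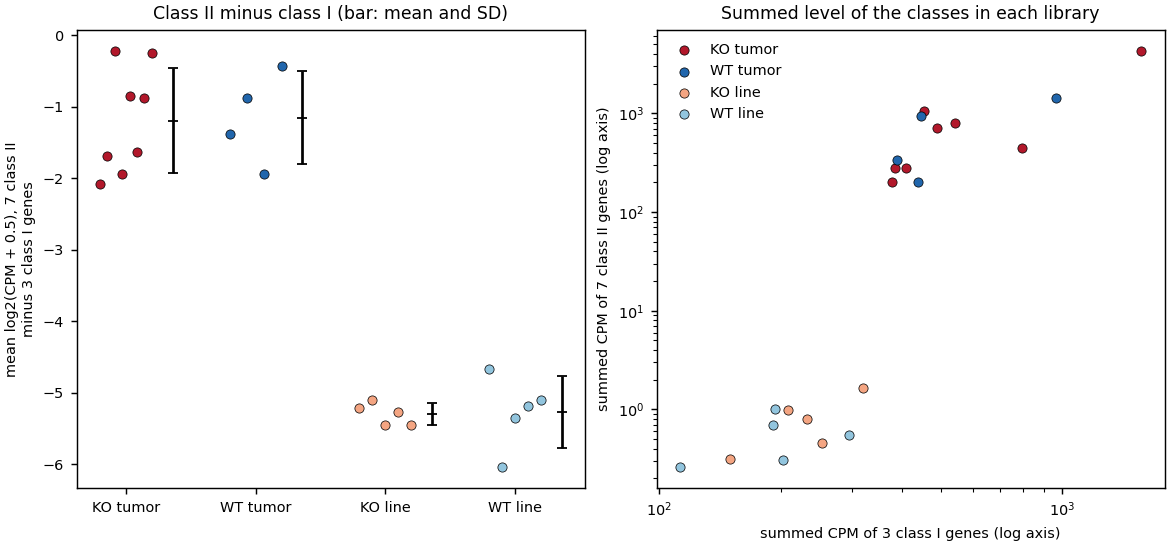
Mean log2(CPM + 0.5) of the 7 class II genes minus that of the 3 class I genes, 1 point per library with the mean and SD of each group. Tumors lie between -2.08 and -0.22 and lines between -6.04 and -4.66, while KO and WT overlap within each material.

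Levels per kilobase of exon allow the genes to be ordered in tumors. As medians of CPM per kilobase, B2m had 278 in KO tumors and 259 in WT tumors, and Cd74 149 in KO tumors and 172 in WT tumors. H2-K1 followed with 80.4 in KO tumors and 82.5 in WT tumors, then H2-Eb1 with 43.8 in KO tumors and 47.4 in WT tumors, H2-Ab1 with 31.9 in KO tumors and 39.7 in WT tumors, and H2-Aa with 32.2 in KO tumors and 31.5 in WT tumors. The order of H2-Ab1 and H2-Aa differed between genotypes, and that of the 3 chains depends on the length used. Per kilobase of the longest coding transcript H2-Aa was the highest of the chains, with 108 in KO tumors and 106 in WT tumors. H2-Ab1 had 67.7 in KO tumors and 84.1 in WT tumors, and H2-Eb1 51.0 in KO tumors and 55.2 in WT tumors. The DM genes and Tap1 were lower per kilobase of exon, with H2-DMb1 at 8.30 in KO tumors and 7.83 in WT tumors, H2-DMa at 5.55 in KO tumors and 5.98 in WT tumors, and Tap1 at 1.98 in KO tumors and 2.14 in WT tumors. Per kilobase of the longest coding transcript, H2-DMb1 had 9.94 in KO tumors and 9.38 in WT tumors, and H2-DMa 9.55 in KO tumors and 10.3 in WT tumors. Ciita was lowest by either length, at 0.494 in KO tumors and 0.438 in WT tumors per kilobase of exon. The ranges of neighbours in the order by exon overlapped in each genotype.

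Within a tumor, the class II chains kept nearly fixed proportions while their levels varied 22.6-fold to 24.4-fold with all tumors, and 5.49-fold to 6.03-fold without KO tumor 8 and WT tumor 2. H2-Ab1 had 0.669 (lowest), 0.768 (median) and 0.859 (highest) counts per count of H2-Aa over the 12 tumors, a 1.28-fold range. H2-Eb1 had 0.655, 0.740 and 0.895 counts per count of H2-Aa, a 1.37-fold range, and Cd74 had 1.94, 2.36 and 2.80, a 1.44-fold range. The DM genes were looser, with H2-DMa at 0.105, 0.136 and 0.270 (2.57-fold) and H2-DMb1 at 0.0745, 0.105 and 0.193 (2.59-fold). Ciita was looser still, at 0.0225 in KO tumor 3, a median of 0.0393 and 0.116 in WT tumor 2, a 5.19-fold range, or 2.25-fold without KO tumor 8 and WT tumor 2. The genes of DO, a DM inhibitor known from B cells and some dendritic cells, spread more widely: H2-Oa ranged 15.3-fold, and H2-Ob had 0.00461 in KO tumor 3, a median of 0.0122 and 0.135 in WT tumor 2, a 29.2-fold range, or 16.7-fold without KO tumor 8 and WT tumor 2. H2-DMb2, a near copy of H2-DMb1, ranged 9.48-fold, or 5.62-fold without them.

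The class I genes kept looser proportions to each other, but Tap1 stayed close to its partners. Over the 12 tumors, H2-K1 had 0.650 (lowest), 1.07 (median) and 1.96 (highest) counts per count of B2m, a 3.01-fold range, and 0.619, 0.793 and 1.44 counts per count of H2-D1, another heavy chain, a 2.33-fold range. Tap1 had 0.544, 0.704 and 1.00 counts per count of Tap2, with which it forms the pump, a 1.84-fold range. Per count of its neighbour Psmb9, Tap1 had 1.71, 2.17 and 2.93 counts, a 1.72-fold range.

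**Figure D4:**
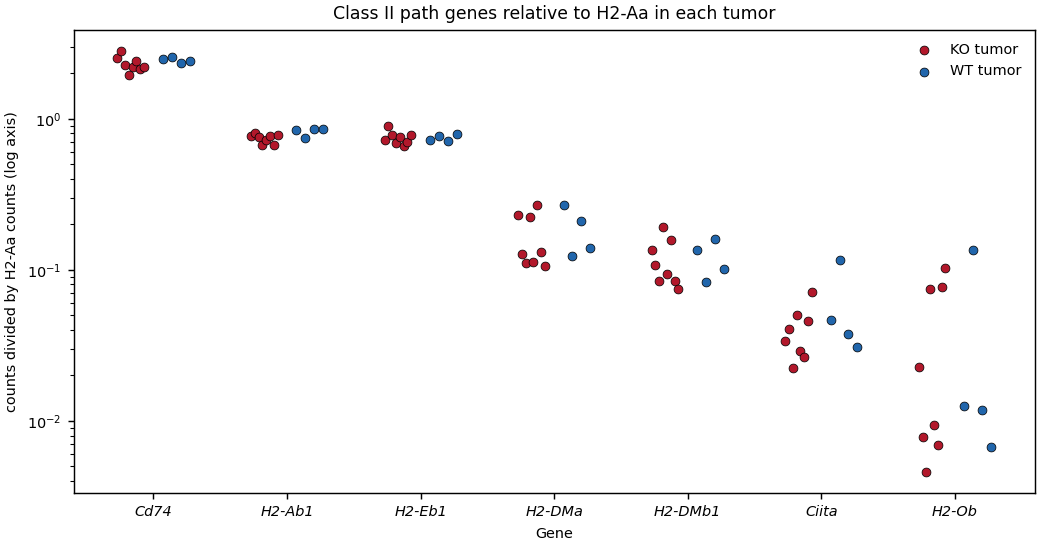
Counts of Cd74, H2-Ab1, H2-Eb1, H2-DMa, H2-DMb1, Ciita and H2-Ob per count of H2-Aa in each of the 12 tumors, on a log axis. Cd74, H2-Ab1 and H2-Eb1 form narrow bands (1.28-fold to 1.44-fold), and Ciita and H2-Ob reach their highest values, 0.116 and 0.135, in WT tumor 2.

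The 3 tumors next highest in class II after KO tumor 8 and WT tumor 2 had few B cell markers. KO tumors 3 and 5 and WT tumor 4 had 1049, 799 and 946 CPM of class II genes with 4.80, 13.0 and 9.22 CPM of the B cell list. They were also next highest in the dendritic cell list, at 37.4, 43.7 and 45.6 CPM, whereas KO tumor 4 had the highest macrophage list, at 2020 CPM, with 447 CPM of class II genes. KO tumor 7, which came after them in class II at 716 CPM, had 105 CPM of the B cell list and 30.2 CPM of the dendritic cell list. KO tumor 6 had more of the dendritic cell list, 33.0 CPM, with only 278 CPM of class II genes. Single genes of that list differed in order. Batf3 and Ccr7 had 1.18 and 1.09 CPM in KO tumor 3, against 3.96 and 3.84 CPM in KO tumor 4. Clec9a was higher in KO tumor 3 than in KO tumor 4. Per count of the macrophage gene C1qa, H2-Aa had 0.229 counts in KO tumor 1 and 2.22 counts in KO tumor 8. Over groups, the dendritic cell list had 16.2 to 136 CPM in KO tumors and 25.6 to 73.9 CPM in WT tumors. The T cell list had 1.53 to 242 CPM in KO tumors and 7.74 to 84.8 CPM in WT tumors. The share of each cell type in the class II level was not tested.

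All 10 genes were higher in tumors with more Ptprc. Over the 12 tumors, Pearson's r of log2(CPM + 0.5) with Ptprc was 0.90 for H2-K1 (Spearman's rho 0.64), 0.92 for B2m (0.85), 0.97 for Tap1 (0.92), 0.88 for Cd74 (0.80), 0.97 for Ciita (0.89) and 0.89 for H2-Aa (0.83). It was 0.87 for H2-Ab1 (0.83), 0.87 for H2-Eb1 (0.80), 0.91 for H2-DMa (0.87) and 0.92 for H2-DMb1 (0.90). In permutation tests (two-sided, 100000 resamples, adjusted over the 10 genes), the adjusted p of r lay between 6.67e-05 and 0.00029, and that of H2-K1's rho was 0.029; the smallest raw p these resamples can give, 1e-05, was reached by Tap1. Within the 8 KO tumors, which include KO tumor 8, r was 0.89 to 0.98 (adjusted p 0.000496 to 0.00831 in an exact permutation test). By the same test, rho there missed the threshold of 0.05 for Cd74 and H2-Eb1 (0.69 each, adjusted p = 0.0694). It also missed it for H2-Aa and H2-Ab1 (0.74 each, adjusted p = 0.0573), and the other genes passed. The 4 WT tumors are too few for a value.

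The 2 tumors farthest from the median of Ptprc were KO tumor 8 and WT tumor 2. Without them (10 tumors, permutation test, adjusted over the 10 genes), r was 0.89 for Tap1 (adjusted p = 0.0059), 0.87 for H2-DMb1 (0.0122), 0.85 for Ciita (0.0122), 0.79 for H2-DMa (0.0175) and 0.74 for both B2m and H2-Aa (0.0313). It was 0.69 for H2-Eb1 and 0.68 for H2-Ab1 (0.0451 each), 0.65 for Cd74 (adjusted p = 0.0509, permutation) and 0.61 for H2-K1 (adjusted p = 0.0605, permutation). By r, the relations of Cd74 and H2-K1 therefore rest on those tumors at a threshold of 0.05. By Spearman's rho in the same 10 tumors, Cd74 passed (0.66, adjusted p = 0.0489, permutation). H2-K1 did not (0.37, adjusted p = 0.296, permutation). With the epithelial gene Epcam in place of Ptprc, r was -0.04 for H2-K1 and reached at most 0.20 (adjusted p = 0.912 for each gene, permutation). Per count of Ptprc, Tap1 stayed within 0.191 to 0.340 counts over the 12 tumors, a 1.78-fold range, whereas H2-K1 ran from 2.52 to 10.5, a 4.16-fold range, or 2.64-fold without KO tumor 8 and WT tumor 2.

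**Figure D5:**
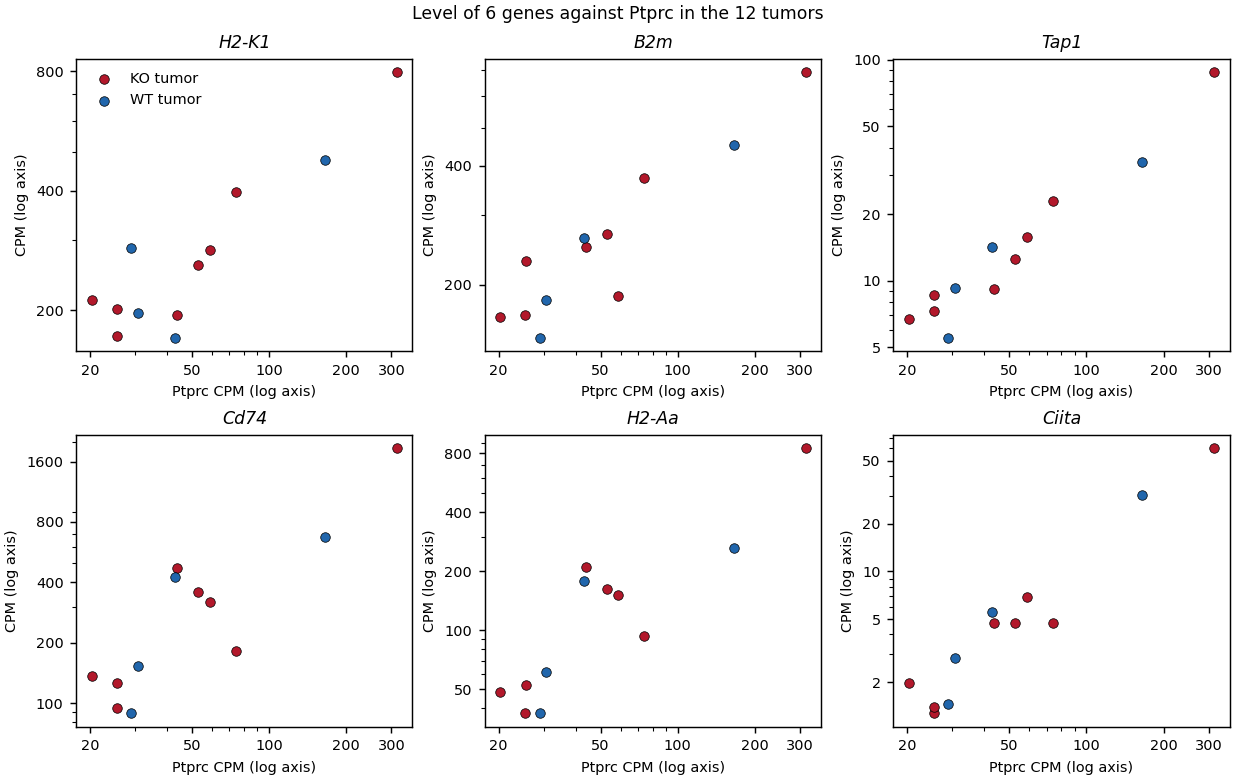
Levels of H2-K1, B2m, Tap1, Cd74, H2-Aa and Ciita against Ptprc in the 8 KO and 4 WT tumors, in CPM on log axes. KO tumor 8 and WT tumor 2 lie at the upper right of every panel; r is 0.97 for Tap1 and 0.90 for H2-K1 with them, and 0.89 and 0.61 without them.

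The rest of the class I pathway (24 genes: other heavy chains, immunoproteasome, peptide loading) gave 0 calls between genotypes, among 23 genes tested in tumors and 16 in lines, with median log2 fold changes of 0.24 in tumors and 0.02 in lines. The smallest p in tumors belonged to Calr, the chaperone calreticulin, at a log2 fold change of -0.39 (adjusted p = 0.238 by edgeR), then H2-Q2 at 2.02 (adjusted p = 0.397). Between materials, 15 of 23 were called higher and 1 lower in KO tumors, and 13 of 23 higher and 1 lower in WT tumors. The lower one was Canx, the chaperone calnexin, at -0.56 in KO and -0.50 in WT. Over all genes tested, 34.2% were called higher and 22.9% lower in KO tumors, and 28% higher and 18.5% lower in WT tumors. The immunoproteasome subunits were among the higher ones, with Psmb9 at 7.70 in KO and 5.70 in WT and Psmb8 at 6.63 in KO and 6.05 in WT. So were Nlrc5 at 5.18 in KO and 4.88 in WT, and Tap2, the partner of Tap1, at 3.81 in KO and 2.93 in WT, while the heavy chain H2-D1 was at 1.69 in KO and 1.38 in WT. Heavy chains share sequence, and with the counts of 11 of them summed in place of H2-K1 the difference between tumors and lines was 1.52 in KO (adjusted p = 0.00119 by edgeR) and 1.41 in WT (adjusted p = 0.00636).

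The rest of the class II pathway (19 genes: other chains, proteases, costimulators, RFX and NF-Y subunits) gave 0 calls between genotypes among 17 genes tested in tumors (median 0.01) and 9 in lines (median -0.11). The smallest p in tumors belonged to Nfya at -0.47 (adjusted p = 0.195 by edgeR) and Rfxank at -0.41 (adjusted p = 0.199). Between materials 10 of 17 were called higher in tumors in each genotype and 1 lower, which was Nfya at -0.59 in KO and Rfx5 at -0.70 in WT. Of all genes, 34.2% were called higher and 22.9% lower in KO, and 28% higher and 18.5% lower in WT. Ctss, the protease cathepsin S that trims the invariant chain, had 0 counts in every line, against 123 to 698 CPM in KO tumors and 152 to 370 CPM in WT tumors. Cd80, a costimulatory ligand, was higher by 5.72 in KO and 7.47 in WT, and the protease gene Lgmn by 1.55 in KO and 1.74 in WT.

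Of 16 genes of the interferon gamma axis, 15 were tested in tumors and 11 in lines, and 0 were called between genotypes (medians 0.06 in tumors and 0.04 in lines). In each genotype 6 of 15 were called higher in tumors than in lines, against 34.2% of all genes in KO and 28% in WT. This share was near the background. By sign alone, 10 of 15 were higher in KO tumors and 9 in WT tumors. Jak2 was lower in KO tumors than in KO lines (-0.53). The interferon-induced genes Gbp3, at 4.84 in KO and 5.51 in WT, and Gbp2, at 3.82 in KO and 3.32 in WT, were among those higher. So was the transcription factor gene Irf8, at 7.65 in KO and 7.12 in WT. The receptor gene Ifngr1 was present in the lines, at 109 to 351 CPM. The ligand gene Ifng itself was seen in 2 tumors alone, at 0.07 CPM in KO tumor 8 and 0.04 CPM in WT tumor 4, both under the floor of 3 counts. Of 3 relatives of class I (Cd1d1, Mr1 and Fcgrt), 0 were called between genotypes. All 3 were called higher in tumors than in lines in KO and 2 in WT.

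The genes whose pattern over the 12 tumors was most like the mean of the 7 class II genes, among 15253 compared, were Arhgap4, Cd52, Ccl22, Plbd1, 5430427O19Rik and Clec9a (r = 0.95 each) and Slamf8 and Plcb2 (0.94 each). For the 3 class I genes they were Arl5c, Calhm6, Il2ra, Ptprc, Rnase6, Ccdc69 and Ikzf1 (0.98 each) and Pacsin1 (0.97). Without KO tumor 8 and WT tumor 2, r was 0.84 to 0.92 for the 8 genes named beside class II and 0.89 to 0.95 for the 8 named beside class I. Over the 10 lines, among 12613 genes, those most like the mean of the class I genes were Syngr1 (0.94), Tmem184b (0.92), Plekhg6 (0.90), Mageh1 and Acsf2 (0.89 each), Aplp2 (0.88), and Slc44a2 and Bst2 (0.87 each). In the lines, H2-K1 and B2m themselves had lower r with that mean, 0.65 and 0.78. Tap1 enters that mean too, although it averaged only 0.511 CPM in KO lines and 0.880 CPM in WT lines. Genes compared had a mean of at least 1 CPM, so Tap1 had no value. How far the genes named for the lines follow Tap1 was not tested. The genes named as most alike were taken as the highest of many, so the values are a description with no test.

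Some of the counts could be shared with neighbours. In the annotation, exons of Tap1 overlap Psmb9 on the other strand by 212 bases, those of Ciita overlap Dexi by 329 bases and those of H2-DMa overlap Brd2 by 360 bases, and the strand setting of the counting is not given in the sources used here. Summed over libraries, Dexi had 176% and Brd2 2047% of the counts of its neighbour, and Psmb9 47.1%. Of the 75-base windows of the longest transcript, 19.1% in H2-DMb1 were also found in H2-DMb2, 4.79% in Tap1 in Psmb9, 1.55% in H2-K1 in H2-D1, and none in the other 7 genes, so the level of H2-DMb1 is the least certain of the 10 in this respect.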

How the data were processed

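RNA was extracted with TRIzol and sequenced as poly-A mRNA with a stranded kit, 75 bp single-end, per the labels' protocols. The submitters' processing notes name bcl2fastq 1.9.0, Trim Galore, STAR and mm10; the annotation and strand setting of the counting are not given in the sources used here. The values are raw read counts per gene, deposited by the authors for lines and tumors; 105 of 53342 gene IDs, with 0.00944% of counts, had no symbol and were kept by ID.

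KO and WT were compared within tumors and within lines in separate fits, and tumors with lines in 1 fit of 22 libraries, which also gave the KO effect in tumors minus that in lines. edgeR 4.0.16 (TMM, filterByExpr, quasi-likelihood, R 4.3.3) was the test, with Benjamini-Hochberg adjustment over all genes tested and a threshold of 0.05. DESeq2 1.42.0 and limma 3.58.1 were alternatives, and so were other filters, RLE factors, each library left out, Ptprc as a covariate and the animal as a replicate block; leaving out KO tumor 8 and WT tumor 2 together was chosen after seeing the data. Animals were matched by title; p-values measure the spread between these samples. Log values use a pseudocount of 0.5 CPM. Correlations used permutation tests (scipy 1.17.1). Sequences came from RefSeq and GENCODE vM21 tables of GRCm38.

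The genes and lists were chosen with earlier results of these data known. All 10 members are named; from other lists, genes that passed between genotypes, or else those with the smallest p. The fits were tested on simulated data. Some genes of the other lists are not reported here.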

Additional observations from a re-analysis of the deposited data

Results flagged for a closer look

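In 14 of 33 sets of 4 to 8 libraries of a group examined for 1 gene, the highest or lowest library stood apart from the rest. Chance gives about 1 in 20 only where values are normally distributed. The CPM were used here without logs and the genes are not independent, so that rate cannot be set beside 14 of 33. KO tumor 8 stood apart among KO tumors in all 10 genes, at 794 CPM in H2-K1, 690 CPM in B2m, 87.8 CPM in Tap1, 1871 CPM in Cd74, 60.3 CPM in Ciita, 850 CPM in H2-Aa, 666 CPM in H2-Ab1, 663 CPM in H2-Eb1, 89.6 CPM in H2-DMa and 63.4 CPM in H2-DMb1. Among WT tumors, WT tumor 2 stood apart in Ciita at 30.6 CPM. Among KO lines, KO line 1 stood apart at 0.182 CPM in Cd74 and 0.145 CPM in Ciita, which are 5 and 4 counts, and KO line 4 at 0.534 CPM in H2-DMb1. The other KO lines had no counts of Cd74 or Ciita, so any count in KO line 1 would have stood apart.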

How the results depend on the processing

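No member was called between genotypes under any setting run. The sign of the tumor fold change (log2, KO minus WT) was not stable: Ciita was -1.42 by DESeq2, which gave it no adjusted p, -0.23 by limma-voom and -0.24 with Ptprc as a covariate. With that covariate H2-Ab1 was -0.0132 and H2-DMa -0.0747, and without KO tumor 8 and WT tumor 2 they were -0.0456 and -0.085. Leaving out 1 tumor gave -0.22 to 0.46 for H2-K1, -0.17 to 0.50 for B2m, -0.43 to 1.08 for Tap1, -0.48 to 0.93 for Cd74, -1.45 to 1.64 for Ciita, -0.33 to 1.05 for H2-Aa, -0.48 to 0.88 for H2-Ab1, -0.37 to 1.05 for H2-Eb1, -0.37 to 0.55 for H2-DMa and -0.23 to 0.69 for H2-DMb1. Leaving out 1 line gave -0.013 to 0.41 for H2-K1. For the KO effect in tumors minus that in lines, H2-K1 was 0.00918 with RLE factors, 0.0092 by DESeq2 and 0.11 with heavy chains summed; leaving out 1 library gave -0.35 to 0.36 for H2-K1, -0.42 to 0.28 for B2m, -0.11 to 3.97 for Cd74, -0.91 to 0.0569 for H2-DMa and -0.78 to 1.33 for H2-DMb1. Among KO lines, Cd74 had counts in KO line 1 alone, so the fit without that line gives no estimate for Cd74, although its range includes that fit. The causes of these changes were not tested.

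Genes called between genotypes numbered 46 in lines, 889 in tumors and 67 for the difference of effects by DESeq2. In tumors they numbered 4 by limma-voom, 10 with the Ptprc covariate and 8 without KO tumor 8 and WT tumor 2. Leaving out 1 library gave 0 to 2 in lines, 2 to 82 in tumors (82 without KO tumor 2, 57 without WT tumor 2) and 0 to 1 for the difference of effects. Between materials all 10 members were called under every setting, except that 9 were called in WT without WT tumor 2. No replicate numbers are shared by the labels; with the animal as a replicate block (consensus correlation 0.287) no member's call changed, and 0 genes were called for the difference of effects, 11113 for tumors over lines in KO and 9875 in WT. The KO minus WT difference of the class balance in lines was -0.55 with the median over genes. Leaving out 1 library gave differences of -0.22 to 0.12 in lines and -0.30 to 0.21 in tumors. Against Ptprc, 48 of 50 values of Pearson's r under other pseudocounts, scaling or tumors kept their side of the threshold and 2 lost it. With Epcam in place of Ptprc, r of H2-K1 was -0.0368. Depth limits Ciita and the class II chains in lines, where only bounds can be given.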
